A study of Mus musculus with 15 samples.

Results

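The comparison described here is that of ABX-treated with untreated mouse medial prefrontal cortex (mPFC) before fear extinction. Its members are the 4 pre-extinction ABX libraries (replicates 1 to 4) and the 3 pre-extinction non-ABX libraries (replicates 1, 3 and 4), 7 of the 15 bulk RNA-seq libraries of the series, chosen by their labels for treatment and stage. All mice were C57BL/6J and all tissue was dissected mPFC. ABX stands for antibiotics. Which drugs were used, their dose, route and duration, and the age and sex of the mice are not stated in the labels. The other 8 libraries are 4 ABX and 4 non-ABX samples taken after extinction and serve only to show how a gene behaved at the other stage. Nor do the labels say that each library came from a separate animal, so a p-value here covers library-to-library spread, which may be technical. The library protocol names sorted cells as input, which is at odds with the labelled source of dissected tissue.

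Antibiotics deplete the gut microbiota, whose metabolites reach the brain through the blood and across the blood-brain barrier. That barrier is formed by endothelial cells joined by tight junctions, wrapped by pericytes in capillaries and by smooth muscle cells in arterioles. In the mPFC, excitatory projection neurons and interneurons regulate the extinction of conditioned fear, so expression before extinction describes the tissue in which that learning would start. The comparison asks which genes already differed between treated and untreated mice when extinction had not begun.

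Counts per library ran from 44254906 to 55058397 in the ABX group and from 49231174 to 57929503 in the non-ABX group. Levels are counts scaled to CPM, that is to library size, and by TMM, a correction for library composition, and differences are log2 fold changes of ABX over non-ABX from edgeR with their standard error (SE). Cortical marker genes were present in every library: Tbr1, a factor of deep-layer excitatory neurons, was at 134, 144, 137 and 117 CPM in the ABX libraries and 126, 135 and 141 CPM in the non-ABX libraries. Levels also varied with the GC content of genes across the 7 libraries. When genes were divided into 5 equal groups by the GC content of their transcripts, the median log2 fold change was 0.15 in the group of lowest GC content and -0.29 in the group of highest. In that highest group the libraries deviated by -0.38, -0.06, -0.23 and 0.11 (ABX 1 to 4), against 0.02, 0.45 and -0.06 (non-ABX 1, 3 and 4), on a log2 scale. ABX 1 and non-ABX 3 thus lay at opposite ends, and ABX 4 lay on the non-ABX side of the other ABX libraries. For part of the genes and lists, values are therefore also given with this trend removed from each library. Removal was possible for the 91.2% of tested genes with a known transcript sequence.

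**Figure D1:**
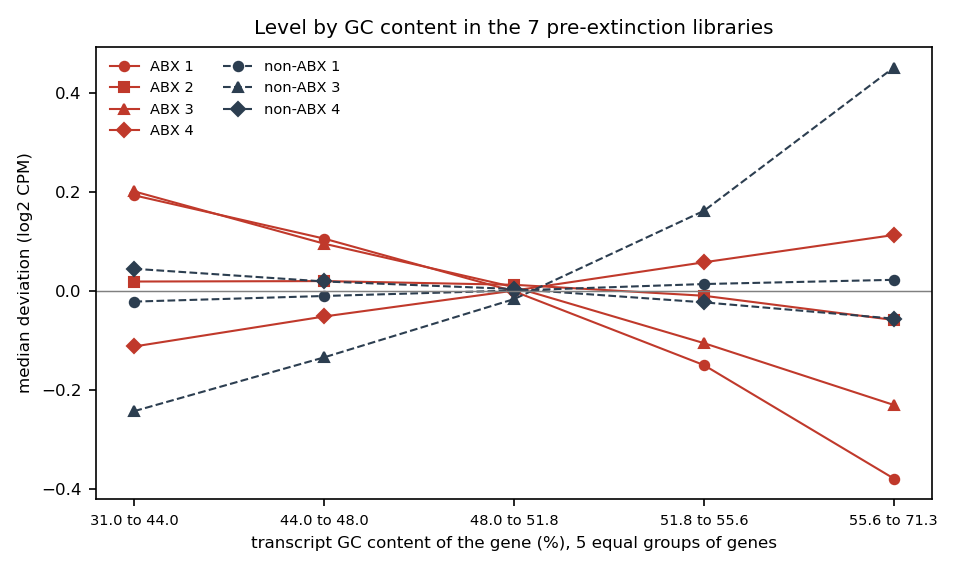
Median deviation of log2 CPM (y axis) in 5 equal groups of genes ordered by transcript GC content in percent (x axis), with 1 line per pre-extinction library, solid for ABX and dashed for non-ABX. At the highest GC content ABX 1 lies at -0.38 and non-ABX 3 at 0.45, while the other libraries lie between -0.23 and 0.11.

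Across the transcriptome the difference was small, and few single genes passed adjustment. Of 16816 genes tested, edgeR called 1 at an adjusted p under 0.05 (0.00595%), the cardiac myosin gene Myh6, which fell with ABX. DESeq2, a count model with its own estimate of the spread, called 15 of 16813 (0.0892%), Myh6 among them. Of these 13 fell and 2 rose by that test. At an unadjusted p under 0.05 there were 1917 genes lower with ABX (11.4%) and 769 higher (4.57%). Counted without a model, all 4 ABX libraries lay below all 3 non-ABX libraries for 528 genes (3.14%) and above them for 608 genes (3.62%). With the GC trend removed these counts were 884 (5.77%) and 521 (3.4%) of 15332 genes, so lower genes made up 62.9% of the separated genes in place of 46.5%. After removal the median log2 fold change over all genes was -0.03 in place of 0.01, and 58.9% were negative in place of 48.5%. The larger share of lower genes, and list medians with the trend removed, are to be read beside this shift. The median absolute log2 fold change over all genes was 0.15 and the median SE 0.12. Changes over 1 on the log2 scale were fitted for 87 genes, but for only 17 of the 14103 genes with a mean of at least 1 CPM.

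Myh6 (Entrez 17888, GRCm38 chromosome 14, 54941921 to 54968017) encodes the alpha heavy chain of cardiac myosin, the motor of the atrial and adult mouse heart muscle sarcomere. It was at 1.79, 1.31, 1.09 and 1.63 CPM in the ABX libraries, from 51 to 81 reads each, against 5.07, 4.74 and 4.79 CPM in the non-ABX libraries, from 233 to 294 reads each. Every ABX library was below every non-ABX library, and the spread within each group was far smaller than the gap. On the log2 scale the difference was -1.74 (SE 0.17), and -1.57 with the GC trend removed, and its adjusted p by edgeR was 2.5e-04. After extinction the libraries held 1.85, 1.46, 1.83 and 1.40 CPM with ABX and 1.87, 2.10, 2.74 and 2.62 CPM without, a log2 fold change of -0.51 (edgeR adjusted p = 0.262). The 3 pre-extinction non-ABX libraries were therefore above all 12 other libraries, of which the highest had 2.74 CPM. The difference between the stages in the ABX effect was -1.24 on the log2 scale (SE 0.23), with an adjusted p = 0.564 by edgeR and 0.00534 by DESeq2. Over all genes edgeR called 0 such differences between the stages, with 2.06% at an unadjusted p under 0.05, and DESeq2 called 4 (0.0238%). Reads shared with the near-identical neighbour Myh7 cannot be told apart in a table of counts, so both genes are uncertain.

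Myh6 did not stand alone. In a list of 28 cardiac and striated muscle genes, 20 passed the filter on low counts, and 14 of these had a negative log2 fold change (median -0.32, against 0.01 over all genes tested). The ABX libraries lay below the non-ABX libraries for 8 of the 20, where 3.14% of all genes were so placed, and above them for 0. With the GC trend removed the median was -0.23, against -0.03 over all genes. Downward separation then held for 5 of the 20, against 5.77% of all genes (Myh6, Mb, Myl2, Mybpc3 and Tnni3). Leaving out ABX 1 gave a median of -0.21, leaving out non-ABX 3 gave -0.18, and leaving out ABX 1 and non-ABX 3 together gave -0.13. None but Myh6 passed edgeR, with an adjusted p = 0.311 for each gene in the next paragraph.

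Mb, myoglobin, the oxygen store of heart and red muscle, was at 0.354, 0.327, 0.512 and 0.403 CPM with ABX and 0.845, 1.05 and 0.802 CPM without, a log2 fold change of -1.17 (SE 0.21) that DESeq2 called (adjusted p = 0.0392). Myl2, the ventricular regulatory myosin light chain, was at 0.376, 0.272, 0.299 and 0.504 CPM with ABX and 0.741, 0.988 and 0.679 CPM without (-1.14, SE 0.29). Nppa, the atrial natriuretic peptide, was at 0.443, 0.345, 0.534 and 0.484 CPM with ABX and 0.655, 0.692 and 0.699 CPM without (-0.60, SE 0.19). Tnni3, the cardiac inhibitory troponin, was at 0.199, 0.127, 0.149 and 0.282 CPM with ABX and 0.466, 0.534 and 0.329 CPM without (-1.23, SE 0.35). These 4 genes were near 1 CPM or below it in every library, and none had overlapping groups. Mybpc3, cardiac myosin-binding protein C, was at 1.02, 0.925, 1.15 and 1.11 CPM with ABX and 1.43, 1.98 and 1.56 CPM without (-0.66, SE 0.16).

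After extinction this downward separation was seen for 1 of the 20 genes, Myh6, where 6.36% of all genes were so placed, and the list median was 0.02. The non-ABX libraries taken before extinction were the ones that stood apart: for Myh6, Mb, Myl2 and Nppa they lay above all 12 other libraries, and over all genes tested this held for 20 of 16816 (0.119%). This count was added after the values had been seen. Ranked by the margin, the first 6 of those 20 genes were Myh6, Mb, Gja5, Myl2, Nppa and Dsp. Gja5, a gap junction connexin of atrial muscle and of arterial endothelium, was at 0.243, 0.345, 0.278 and 0.383 CPM with ABX and 0.534, 0.652 and 0.576 CPM without, and after extinction at 0.319, 0.185, 0.161 and 0.417 CPM with ABX and 0.415, 0.302, 0.232 and 0.414 CPM without. Dsp, desmoplakin of desmosomes in heart and skin, was at 0.133, 0.145, 0.192 and 0.181 CPM with ABX and 0.431, 0.336 and 0.247 CPM without. After extinction it was at 0.213, 0.144, 0.222 and 0.167 CPM with ABX and 0.132, 0.208, 0.126 and 0.178 CPM without. Dsp passed the filter on low counts only through the pre-extinction non-ABX libraries, where it was high. Its place among the 20 genes therefore supports nothing.

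The other 8 genes of the list were too rare for the test and are given as reads. Myl3, the ventricular essential light chain, had 1, 1, 1 and 0 reads in the ABX libraries, against 20, 10 and 15 in the non-ABX libraries, and between 0 and 3 in the 8 post-extinction libraries. Csrp3, a Z-disc protein of muscle, had 0 reads in all 4 ABX libraries, against 1, 7 and 2 in the non-ABX libraries, and 0 in all 8 post-extinction libraries. Actc1, cardiac actin, had 5, 2, 0 and 4 reads with ABX and 5, 10 and 9 without. For Myl3 and Csrp3 the pre-extinction non-ABX libraries were the high ones, while for Actc1 the groups met at 5 reads. Ckm, the muscle creatine kinase, had 6, 8, 2 and 5 reads with ABX and 6, 13 and 6 without, so its groups overlapped. Trdn, triadin of the muscle calcium store, had 5, 11, 6 and 8 reads with ABX and 6, 3 and 5 without. Tnnt3 and Nppb had 1 to 3 and 0 to 2 reads in each of the 7 libraries, and Myl7 had 0 in all 7. Whether cells or RNA of another tissue had a part in the non-ABX levels was not tested.

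**Figure D2:**
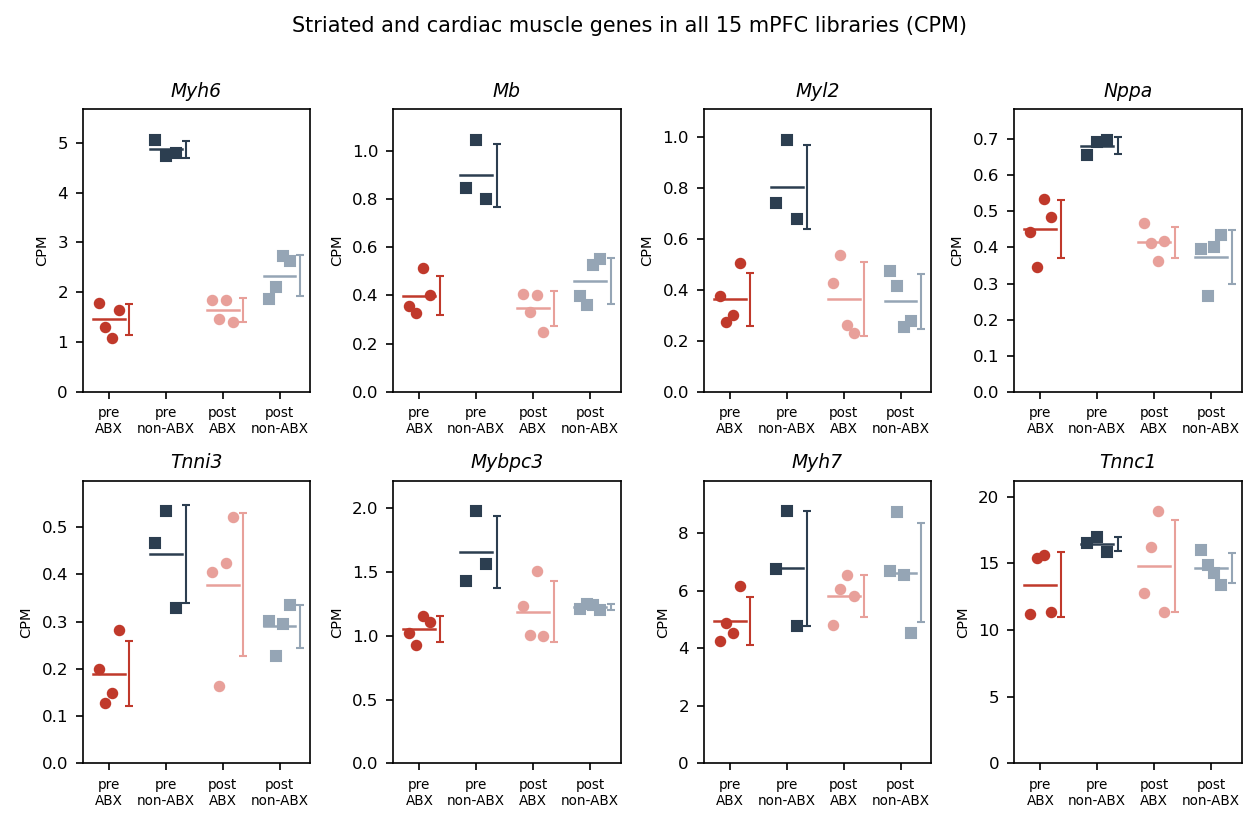
CPM (y axis, from 0) of 8 striated and cardiac muscle genes in the 15 libraries by group (x axis), with 1 point per library, a line at the mean and a bar of 1 SD beside it. For Myh6, Mb, Myl2 and Nppa the 3 pre-extinction non-ABX points lie above all others, while the pre-extinction groups of Myh7 overlap.

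The promoters of Myh6 and of Acta2, the smooth muscle actin gene described further on, are shown because these muscle genes lay lower with ABX and hold the same short element. Both run from 250 bases before to 50 bases after the start taken for each gene in RefSeq (GRCm38.p6), on the minus strand, chr14:54966558-54966857 for Myh6 and chr19:34255324-34255623 for Acta2. Capitals mark the letters CATTCC on either strand, the core of the M-CAT element that TEAD factors bind in muscle genes.
Myh6: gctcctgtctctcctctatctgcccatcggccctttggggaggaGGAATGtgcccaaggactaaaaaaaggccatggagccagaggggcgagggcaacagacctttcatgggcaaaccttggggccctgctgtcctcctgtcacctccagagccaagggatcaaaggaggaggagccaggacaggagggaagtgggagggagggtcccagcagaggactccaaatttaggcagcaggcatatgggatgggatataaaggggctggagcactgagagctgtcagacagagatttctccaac
Acta2: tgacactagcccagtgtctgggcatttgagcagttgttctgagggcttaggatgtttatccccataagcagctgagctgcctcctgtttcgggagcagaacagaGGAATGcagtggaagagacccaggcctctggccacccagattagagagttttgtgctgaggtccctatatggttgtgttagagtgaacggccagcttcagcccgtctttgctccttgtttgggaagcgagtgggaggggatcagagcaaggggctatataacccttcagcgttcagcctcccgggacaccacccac
The match begins 206 bases before the start in Myh6 and 146 bases before it in Acta2, and overlaps no other motif searched. CATTCC was found in 9 of the 19 cardiac and striated list genes that had a promoter sequence, in 7 of 17 in the smooth muscle list and in 3 of 19 in the endothelial list. The share was 12.4% over the 12772 tested genes with a promoter and 14.6% over all 27025 promoters. The CArG box, the site of serum response factor, was searched only as an exact match to CCWWWWWWGG, with W for A or T. It was in 3, 1 and 0 genes of the same lists (1.31% of tested genes). Near matches to this box, which the Acta2 sequence above holds, were not counted. The GATA letters AGATAA, read on both strands, were in 3, 2 and 1 genes (6.62%). Of the separated genes in these 3 lists that had a promoter sequence, only Myh6, Tnnc1 and Acta2 held CATTCC, and the pair printed was chosen after the matches were seen. A match is a description of the letters and not of binding.

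With all 7 libraries, endothelial genes had the lowest median of the 48 gene lists, while without ABX 2 the cardiac and striated list was lower (-0.41, against -0.34). Of 40 brain endothelial identity genes, all of which passed the filter, 38 had a negative log2 fold change, where 48.5% of all genes tested did. The median was -0.40, and -0.38 with the GC trend removed, and -0.34 to -0.51 when any 1 library was left out. The ABX libraries lay below the non-ABX libraries for 7 of the 40 (Podxl, Sox17, Flt1, Ly6c1, Ptprb, Kdr and Icam2), against 3.14% of all genes, and for 14 with the GC trend removed, against 5.77%. In whole tissue, fewer endothelial cells and less RNA of these genes per cell cannot be told apart. After extinction the median was -0.38 and 19 of the 40 were separated downward (6.36% of all genes). The groups were separated downward at both stages for 4 of the 40 (0.773% of all genes).

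Podxl, a sialomucin of the endothelial surface facing the blood, was at 32.5, 29.2, 33.6 and 39.9 CPM in the ABX libraries, against 44.4, 46.8 and 55.8 CPM in the non-ABX libraries. The highest ABX library was below the lowest non-ABX library. Its log2 fold change was -0.53 (SE 0.10), with an adjusted p = 0.311 by edgeR and 0.00966 by DESeq2. Sox17, a transcription factor of arterial endothelium, was at 1.81, 1.23, 1.60 and 2.38 CPM with ABX and 2.48, 3.78 and 3.21 CPM without (-0.84, SE 0.19, DESeq2 adjusted p = 0.0283). Here the groups nearly touched, at ABX 4 and non-ABX 1. Flt1, a receptor of vascular endothelial growth factor, was at 42.7, 41.3, 49.1 and 55.3 CPM with ABX and 60.3, 66.5 and 73.1 CPM without (-0.50, SE 0.12). Kdr, the main signalling receptor of that factor, was at 13.2, 11.9, 11.8 and 15.7 CPM with ABX and 16.5, 16.0 and 17.5 CPM without (-0.34, SE 0.11). Ptprb, a phosphatase of endothelial junctions, was at 52.9, 45.3, 53.1 and 61.8 CPM with ABX and 64.3, 68.8 and 77.4 CPM without (-0.40, SE 0.11). For these receptors and the phosphatase the gap between the groups was narrow but complete. Ly6c1 had -0.43 (SE 0.12) and Icam2, an adhesion molecule for leukocytes, -0.53 (SE 0.22). edgeR called none of these genes (adjusted p = 0.311 each).

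Other endothelial genes shifted as far but overlapped in 1 library. Cldn5, the main claudin of the brain's tight junctions, was at 7.04, 9.36, 8.75 and 13.6 CPM with ABX and 13, 20.4 and 12.6 CPM without, a log2 fold change of -0.66 (SE 0.26). Tie1, an orphan receptor of the angiopoietin system, was at 4.29, 5.17, 5.87 and 9.15 CPM with ABX and 8.36, 13.8 and 9.63 CPM without (-0.79, SE 0.22), and Nos3, endothelial nitric oxide synthase, had -0.79 (SE 0.22). In each of these genes ABX 4 lay inside the non-ABX range. Cldn5 and Tie1 had -0.33 and -0.56 with the GC trend removed. At the other end of the list stood Cd34 with 0.04 (SE 0.08) and S1pr1, a sphingosine phosphate receptor, with 0.10 (SE 0.09).

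**Figure D3:**
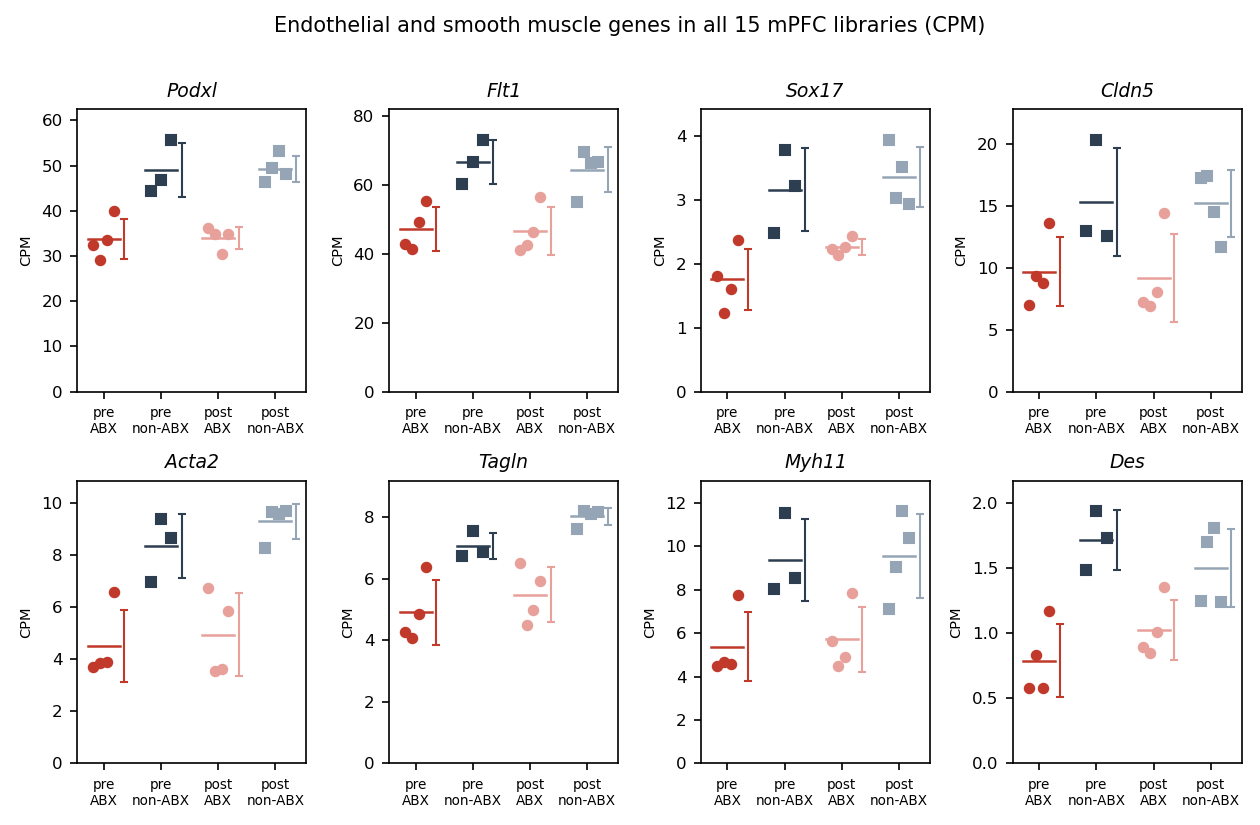
CPM (y axis, from 0) of 4 endothelial genes (upper row) and 4 smooth muscle genes (lower row) in the 15 libraries by group (x axis), with 1 point per library, a line at the mean and a bar of 1 SD beside it. In Podxl the ABX points end at 39.9 CPM and the non-ABX points begin at 44.4 CPM; in most of the other panels 1 ABX point lies near the non-ABX points.

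For the endothelial list, ABX 4 was the library that differed from the others of its group. Of the 40 endothelial genes, 34, 38 and 34 were below all non-ABX libraries in ABX 1, 2 and 3, but 9 in ABX 4. Over all genes tested the same counts were 6415, 4137, 5954 and 2863 of 16816. With the GC trend removed the endothelial counts were 36, 39, 36 and 14, and the list's median deviation was -0.28, -0.41, -0.17 and 0.10 in ABX 1 to 4, against 0.09, 0.24 and 0.23 in non-ABX 1, 3 and 4. Removal of the trend thus left ABX 4 within the non-ABX range. Without ABX 4 the list median was -0.51 and 30 of the 40 genes were separated (13.7% of all genes tested), and 35 with the trend removed (11.6%). ABX 4 was not set apart in vessel genes alone. In the interferon response and antigen presentation list its median deviation with the trend removed was 0.36, against 0.003, -0.15 and -0.14 in ABX 1 to 3.

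The number of called genes also turned on this library. Without ABX 4, edgeR called 28 genes in place of 1, all of them lower with ABX (0.167% of 16792 tested). Of the 28, 12 stood on a vascular list, and these lists held from 19 to 40 tested genes each. As fitted, ABX 4 had the highest median deviation of the ABX libraries in every vascular list. With the GC trend removed, ABX 1 was higher in the pericyte list (0.082 against 0.074) and the angiogenic list (0.024 against 0.021). Leaving ABX 4 out of the fit, in which the trend was kept, therefore favours calls of such genes. On the log2 scale and with edgeR adjusted p in brackets, Slc7a5 had -0.55 (0.02), Podxl -0.62 (0.0264), Des -1.35 (0.0308), Sox17 -1.03 (0.0358), Acta2 -1.13 (0.0396) and Tagln -0.68 (0.0406). The other 6 were Acvrl1, Tie1, Notch4, Robo4, Mmrn2 and Eng, all genes of endothelial signalling or matrix. Of the 28, 17 were separated when ABX 4 was counted as well, and 10 were among the calls of DESeq2 on all libraries. Nothing in the labels sets ABX 4 apart, and why it differed was not tested.

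**Figure D4:**
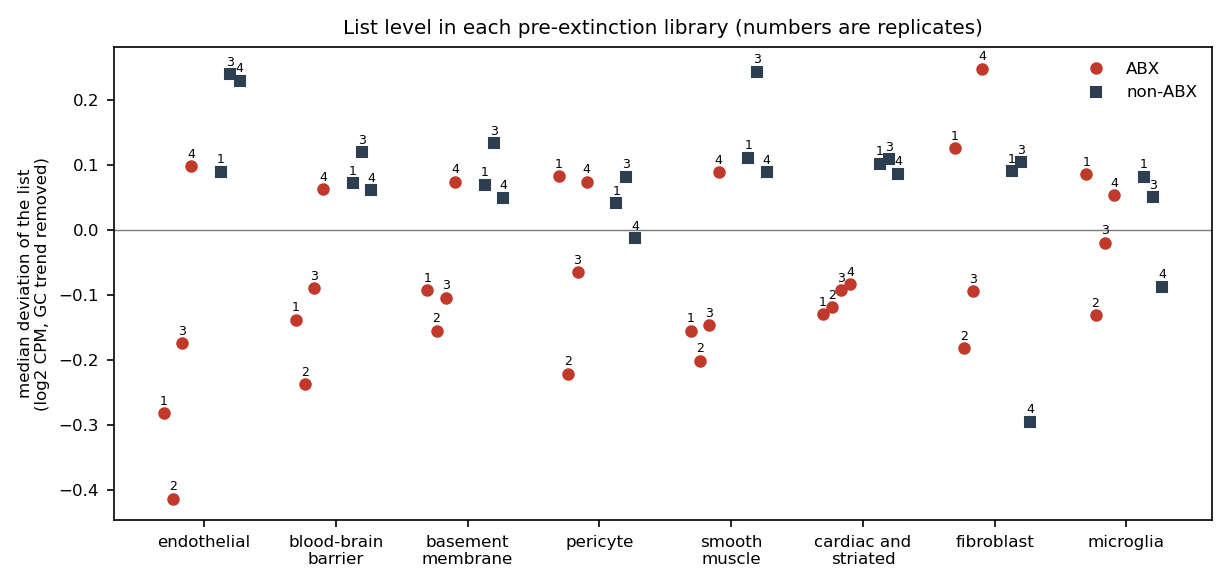
Median deviation of log2 CPM with the GC trend removed (y axis) for 8 gene lists (x axis) in each pre-extinction library, ABX as circles left and non-ABX as squares right, numbered by replicate. For the endothelial list ABX 1 to 3 lie from -0.41 to -0.17 and ABX 4 at 0.10, while for the cardiac and striated list all 4 ABX libraries lie from -0.13 to -0.08 and all 3 non-ABX libraries from 0.09 to 0.11.

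Smooth muscle genes, which give arterioles their contractile apparatus, lay lower as well. Of 21 tested, 18 had a negative log2 fold change (median -0.21, and also with the GC trend removed), and 5 were separated, all lower with ABX (3.14% over all genes). Leaving out non-ABX 3 gave a median of -0.12, and leaving out ABX 4 gave -0.33. Acta2, smooth muscle actin, was at 3.72, 3.85, 3.88 and 6.59 CPM in the ABX libraries, against 6.98, 9.39 and 8.66 CPM in the non-ABX libraries. ABX 1 to 3 were almost equal and ABX 4 stood close to the lowest non-ABX library. It had -0.89 (SE 0.22) on the log2 scale and an adjusted p = 0.311 by edgeR. Tagln, transgelin, an actin-binding protein of the same cells, was at 4.27, 4.08, 4.85 and 6.39 CPM with ABX and 6.74, 7.55 and 6.87 CPM without (-0.53, SE 0.14). Myh11, smooth muscle myosin, was at 4.49, 4.68, 4.59 and 7.74 CPM with ABX and 8.05, 11.5 and 8.56 CPM without (-0.80, SE 0.22). Des, desmin, an intermediate filament shared by smooth, cardiac and skeletal muscle, was at 0.575, 0.835, 0.576 and 1.17 CPM with ABX and 1.48, 1.94 and 1.73 CPM without (-1.11, SE 0.24, DESeq2 adjusted p = 0.0245). In these genes too ABX 4 was the highest ABX library. Pln, phospholamban, which restrains the calcium pump of heart and smooth muscle, was at 0.509, 0.544, 0.640 and 0.282 CPM with ABX and 0.828, 0.692 and 0.843 CPM without (-0.67, SE 0.40, edgeR adjusted p = 0.367), and there ABX 4 was the lowest.

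Other vascular lists also had negative medians. Of 30 blood-brain barrier transport and junction genes 26 were negative (median -0.17, and -0.19 with the GC trend removed). Slc7a5, the carrier of large neutral amino acids such as tryptophan across the barrier, was at 53.6, 63.9, 64.1 and 79.3 CPM with ABX and 83.0, 96.4 and 87.0 CPM without (-0.44, SE 0.10, DESeq2 adjusted p = 0.0399, and -0.27 with the GC trend removed). Slc2a1, the barrier's glucose carrier, was at 22.1, 30.7, 36.8 and 54.6 CPM with ABX and 47.0, 85.9 and 53.0 CPM without (-0.78, SE 0.24). Its groups overlapped, with ABX 4 above 2 of the non-ABX libraries. Marveld2, tricellulin of tricellular junctions, had -0.48 (SE 0.18) and was separated. Slc16a1, the lactate carrier of the barrier, was separated upward, at 33.6, 33.0, 32.3 and 32.4 CPM with ABX and 29.0, 27.1 and 31.9 CPM without (0.16, SE 0.08, edgeR adjusted p = 0.317). In this list 2 genes were separated downward and 1 upward, against 3.14% and 3.62% of all genes. Of 19 pericyte genes 15 were negative (median -0.16), but the median was -0.05 with the GC trend removed, -0.08 without non-ABX 3, -0.11 without ABX 2 and -0.27 without ABX 4. In that list 1 gene, Ndufa4l2, was separated downward (-0.78, SE 0.22), where 3.14% of all genes were. Vascular basement membrane genes had 16 of 20 negative (median -0.25, -0.16 with the trend removed, and -0.15 without non-ABX 3) and none was separated. Angiogenic and vascular signalling genes had 27 of 38 negative (median -0.12, and -0.04 without non-ABX 3). The 2 separated downward, against 3.14% of all genes, were Dll4, a Notch ligand of arterial endothelium, and Aplnr, the apelin receptor, with -0.66 (SE 0.18) and -0.53 (SE 0.31). Fibroblasts of the meninges and vessel sheath had 11 of 29 negative (median 0.09, but -0.01 without ABX 4 and -0.06 without non-ABX 4), and microglia 14 of 25 (median -0.04, but 0.01 without non-ABX 3), with 0 separated in either list.

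Beyond the muscle and vessel lists, DESeq2 called 7 more genes that fell with ABX. Pltp, a phospholipid transfer protein of plasma, was at 14.4, 15, 16.8 and 24.6 CPM with ABX and 26.2, 38.8 and 27.8 CPM without (-0.80, SE 0.17, DESeq2 adjusted p = 0.0243). Eln, elastin of arterial walls, was at 3.05, 3.18, 3.18 and 5.12 CPM with ABX and 5.38, 8.76 and 5.66 CPM without (-0.86, SE 0.20, DESeq2 adjusted p = 0.0399). Fgd5, an exchange factor for Cdc42 in endothelium, and Ccm2l, a relative of a cerebral cavernous malformation gene, had -0.59 (SE 0.13) and -0.75 (SE 0.17). Srarp, a steroid receptor associated protein, was at 0.487, 0.526, 0.811 and 0.826 CPM with ABX and 1.47, 2.04 and 1.40 CPM without (-1.30, SE 0.26, DESeq2 adjusted p = 0.00966). Abcc6, a transporter of the multidrug resistance family, had -1.20 (SE 0.27), and Fmo2, a flavin-containing monooxygenase, was at 1.48, 0.998, 1.11 and 1.41 CPM with ABX and 1.93, 2.17 and 2.14 CPM without (-0.74, SE 0.15). No group overlapped in these genes, and edgeR called none of them (adjusted p = 0.311 each). With the GC trend removed Eln had -0.58, Ccm2l -0.44 and Abcc6 -0.92, each smaller in size than as fitted. The others are given only as fitted.

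DESeq2 called 2 genes that rose with ABX, Utp14b and Car13. Utp14b, a protein of the small ribosomal subunit processome, was at 14.3, 16.0, 15.5 and 13.6 CPM with ABX and 10.9, 9.43 and 11.3 CPM without (0.50, SE 0.11, DESeq2 adjusted p = 0.0283). Car13, a cytosolic carbonic anhydrase, was at 4.65, 4.01, 4.29 and 5.16 CPM with ABX and 3.14, 2.37 and 2.90 CPM without (0.69, SE 0.16, DESeq2 adjusted p = 0.0399). Both were complete separations. Krt9, a keratin, was at 6.64, 6.70, 5.85 and 5.72 CPM with ABX and 4.46, 4.72 and 4.88 CPM without (0.41, SE 0.10). Gpc3, a glypican of the cell surface, was at 4.91, 4.92, 4.93 and 5.16 CPM with ABX and 3.98, 3.04 and 3.41 CPM without (0.51, SE 0.13). The 4 ABX libraries were almost equal for Gpc3. Malat1, a nuclear long noncoding RNA, was at 1138, 815, 998 and 727 CPM with ABX and 677, 582 and 705 CPM without (0.49, SE 0.13, and 0.32 with the GC trend removed). Its highest and lowest libraries were ABX 1 and non-ABX 3, the ends of the GC trend. Tmem255a, Pter, Sarnp, Mroh8 and Zgrf1 completed the 10 with 0.36, 0.53, 0.50, 0.54 and 0.44, and with 0.21, 0.34, 0.34, 0.54 and 0.28 when the trend was removed (edgeR adjusted p = 0.311 for all 10).

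The median shift of the neuronal lists was smaller than that of the endothelial list. Of 43 genes for ionotropic glutamate receptors or postsynaptic scaffolds 33 were negative (median -0.15, but -0.09 without ABX 1 and -0.05 without ABX 1 and non-ABX 3). With the GC trend removed 38 were negative, where 58.9% of all genes were, and the median was -0.08. Separated genes numbered 5, all lower, and 8 with the trend removed, against 3.14% and 5.77% of all genes. Cacng2, stargazin, which carries AMPA receptors to the synapse, was at 36, 42.4, 45.7 and 47.5 CPM with ABX and 49.3, 64.1 and 52.1 CPM without (-0.36, SE 0.11, and -0.36 with the trend removed). Shank2, a scaffold protein, had -0.49 (SE 0.17), and -0.35 with the trend removed. The AMPA receptor subunits Gria1, Gria2 and Gria3 had 0.12, 0.12 and 0.13. None of these genes passed edgeR (adjusted p from 0.311 to 0.515).

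Among 46 calcium channel and signalling genes, 26 were negative with a median of -0.04, and 9 were separated, all lower with ABX, where 3.14% of all genes were. With the trend removed 9 were separated downward, against 5.77% of all genes. That set is not identical, and Cacna1i was not in it. Pore-forming subunits of voltage-gated channels made up most of the genes separated before the trend was removed. Cacna1g, a T-type channel of burst firing, was at 79.5, 113, 107 and 123 CPM with ABX and 143, 184 and 123 CPM without (-0.51, SE 0.15, and -0.25 with the trend removed). Cacna1i, another T-type channel, was at 100.4, 121, 113 and 135 CPM with ABX and 137, 181 and 139.8 CPM without (-0.38, SE 0.11, and -0.09). For Cacna1g, ABX 4 and non-ABX 4 were nearly equal, and Cacna1i changed more than Cacna1g when the trend was removed. Cacna1b, the N-type channel of transmitter release, had -0.32 (SE 0.14) and -0.27, and Cacna1c, an L-type channel, -0.24 (SE 0.14) and -0.27, each without and with removal. Camkk2, a calcium-dependent kinase, was at 363, 397, 407 and 426 CPM with ABX and 443, 498 and 443 CPM without (-0.21, SE 0.07). Interneuron, deep-layer and striatal marker lists had medians of 0.03, 0.01 and -0.02. In them 2, 0 and 0 genes were separated, all downward, against 3.14% of all genes.

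Immediate early genes, a rapid transcriptional response to neuronal firing, gave no common direction, with 17 of 36 positive and a median of -0.04. The median was 0.03 without ABX 1, 0.09 without non-ABX 3 and -0.19 without non-ABX 1. Btg2, an antiproliferative factor, was at 47.9, 21.6, 20.9 and 23.7 CPM with ABX and 14, 17.0 and 17.6 CPM without (0.82, SE 0.34, edgeR adjusted p = 0.311), and Fos, a subunit of AP-1, at 41.1, 35.8, 39.4 and 42.4 CPM with ABX and 27.1, 35.0 and 27.5 CPM without (0.41, SE 0.31, edgeR adjusted p = 0.465). Both were separated upward, as 3.62% of all genes were, though Btg2 leaned on ABX 1. Inhba, a subunit of activin, was separated downward, at 3.21, 4.61, 3.65 and 3.00 CPM with ABX and 5.26, 5.55 and 5.55 CPM without (-0.59, SE 0.15). Of 25 genes that glucocorticoids induce, 18 were negative (median -0.18), and the median was -0.07 without non-ABX 3 and -0.32 without ABX 4 or without non-ABX 1. Cdkn1a, an inhibitor of the cell cycle, was the only one of them separated downward, at 20.8, 24.5, 27.5 and 27.4 CPM with ABX and 32.4, 33.3 and 30.3 CPM without (-0.35, SE 0.09). Another 1 of the 25 was separated upward. Over all genes 3.14% were separated downward and 3.62% upward.

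Lists with a positive median included metabolic and blood genes. Of 25 genes of cholesterol synthesis and uptake 17 were positive (median 0.06), where 51.5% of all genes were. With the GC trend removed 14 were positive and the median was 0.006, against -0.03 over all genes. Insig1, Fdft1 and Cyp51 were separated upward at both stages, as 0.624% of all genes were. Insig1, which holds the sterol sensor in the endoplasmic reticulum, was at 73.7, 67.6, 68.2 and 62.1 CPM with ABX and 59.5, 55.3 and 55.3 CPM without (0.26, SE 0.08). Cyp51, lanosterol demethylase, was at 101, 98.9, 104 and 90.3 CPM with ABX and 87.2, 78.5 and 89.1 CPM without (0.22, SE 0.09). Of 53 cytosolic ribosomal protein genes 27 were positive and 5 were separated upward (3.62% over all genes), among them Rpl7 with 0.23 (SE 0.08). The median of that list was 0.003, where all genes had 0.01. It was 0.05 with the GC trend removed and -0.02 without ABX 4. Mitochondrially encoded transcripts had 12 of 13 positive (median 0.29), but 0.02 with the GC trend removed and 0.14 without ABX 1 or without non-ABX 3. Their summed level was 61326, 37938, 51780 and 38603 CPM with ABX and 43360, 31018 and 44982 CPM without, so the groups overlapped. Blood cell genes had a median of 0.72 over 7 tested genes and 0.19 without ABX 1. Hba-a2, a haemoglobin chain, was at 0.531, 0.0544, 0.0427 and 0.0403 CPM with ABX and 0.0690, 0.138 and 0.0823 CPM without, and the part of blood left in the tissue was not tested.

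**Figure D5:**
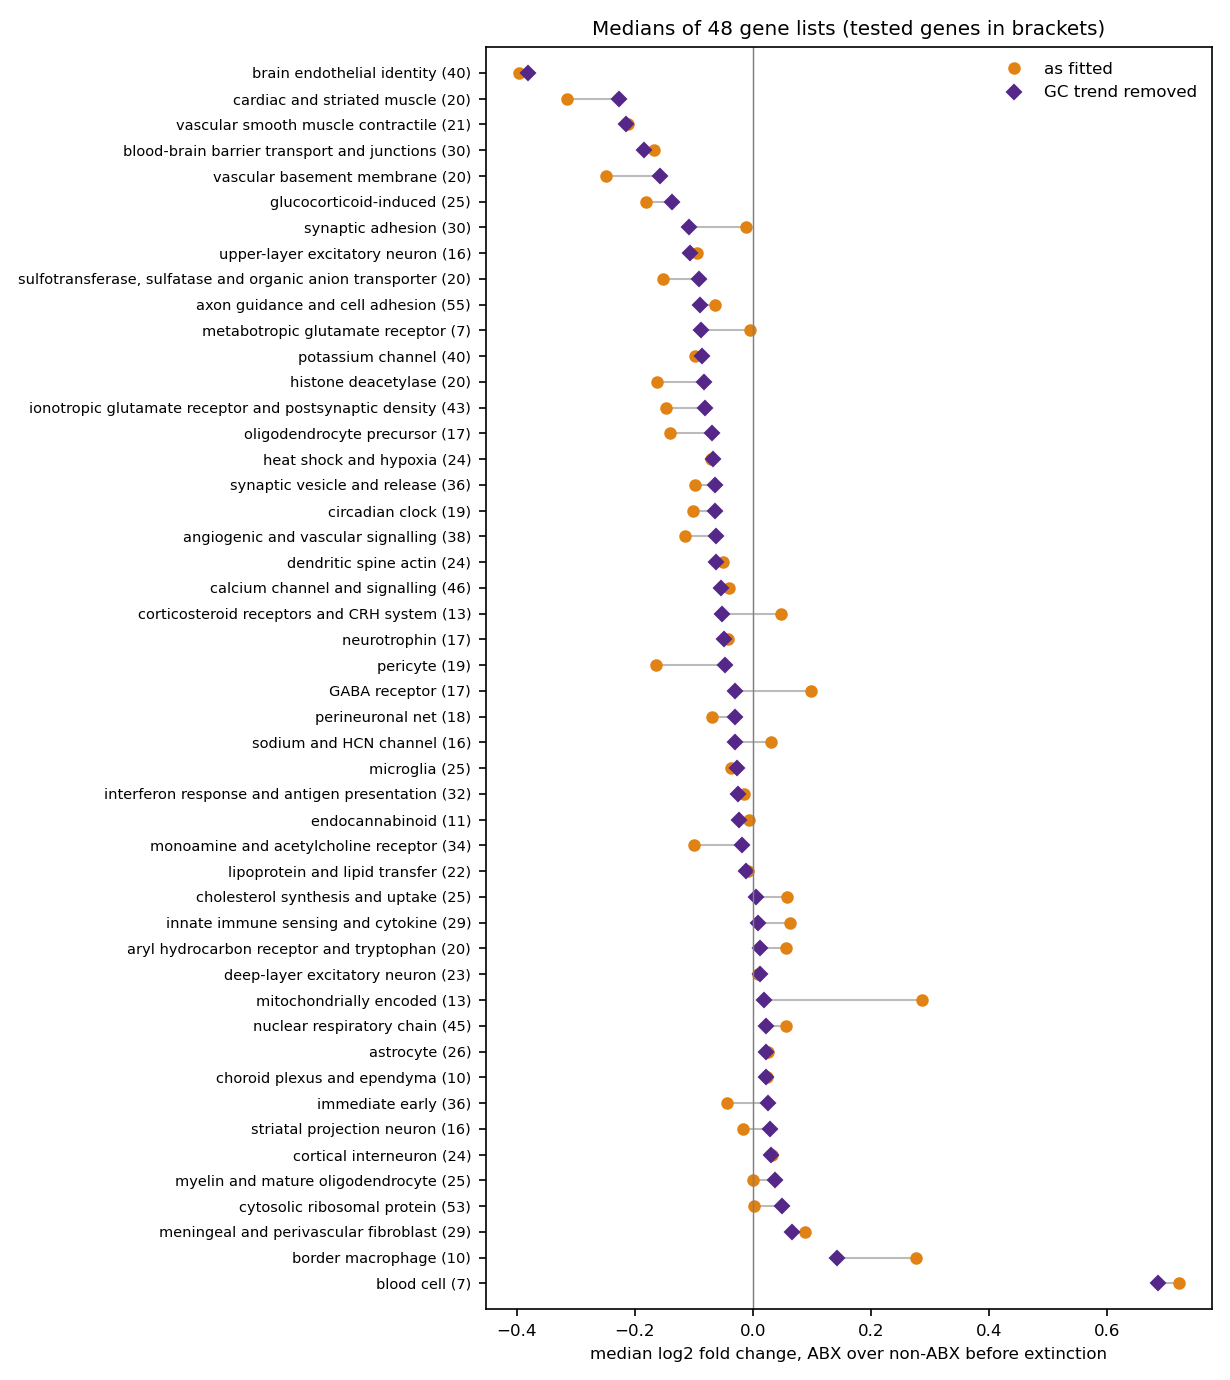
Median log2 fold change of ABX over non-ABX before extinction (x axis) of 48 gene lists (y axis, tested genes in brackets), as fitted (circles) and with the GC trend removed (diamonds). The endothelial list has the lowest median in both (-0.40 and -0.38), while the mitochondrially encoded list moves to 0.02 when the trend is removed.

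The 8 post-extinction libraries share no sample with the 7 before extinction, so they give a second view of ABX. There edgeR called 3 genes (0.0178%) and DESeq2 182 (1.17%). Across the 14103 genes of at least 1 CPM the log2 fold changes of the 2 stages had r = 0.75 (rho = 0.74) and the same sign in 79.8%, a description across genes that share libraries and GC content. In both stages the groups were separated in the same direction for 130 genes lower with ABX (0.773%) and 105 higher (0.624%), against 3 (0.0178%) and 2 (0.0119%) in opposite directions. Among the lower genes with the largest change at both stages were Acta2, Pltp, Sox17 and Ndufa4l2, given above, and Trpv4, Sigirr, Klhl36 and Inhba. Trpv4, a cation channel of endothelium and glia, had -0.88 (SE 0.21) before and -0.66 after extinction. Sigirr, a negative regulator of interleukin-1 receptors, had -0.75 (SE 0.21) and -0.64. Klhl36 had -0.69 (SE 0.23) and -0.60, and Inhba -0.60 after extinction.

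Among the higher genes, Etnppl, an astrocytic phospho-lyase of phosphoethanolamine, showed the largest shift at both stages. It was at 44.2, 27.1, 32.6 and 41.8 CPM with ABX and 22.9, 20.6 and 23.9 CPM without before extinction (0.69, SE 0.21), and at 53.3, 54.1, 53.3 and 99.3 CPM with ABX and 39.1, 31.3, 38.1 and 32.3 CPM without after it (0.89). All 8 ABX libraries were higher than the non-ABX libraries of their stage. Slc2a9, a urate carrier, had 0.44 (SE 0.20) and 0.79, and Adgrv1, an adhesion receptor, 0.46 (SE 0.17) and 0.57. Krt9 and Utp14b had 0.62 and 0.44 after extinction, and of these Krt9 rose there by edgeR (adjusted p = 0.0449). Cd46, a complement regulator, had 0.54 and 0.46, the amylase gene Amy1, one of a family of near-identical copies and so uncertain, 0.40 and 0.44, and Epyc, a small matrix proteoglycan, 0.42 and 0.58. Before extinction none of these passed edgeR (adjusted p = 0.311 for each but Slc2a9, with 0.312). With the GC trend removed Adgrv1, Cd46 and Amy1 had 0.36, 0.35 and 0.21 before extinction. After extinction the genes of lowest GC content had a median log2 fold change of 0.09 and those of highest -0.19. The GC trend thus ran the same way at both stages.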

How the data were processed

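Dissected mPFC was profiled by bulk RNA-seq. Per the labels' protocols, RNA was amplified with an ultra-low-input kit that does not keep strand, so a gene and its antisense partner cannot be told apart. Per the submitters' processing notes, CASAVA 1.8.2 and STAR 2.3.0 were used with the mm10 genome. The sources used here do not name the counting program or annotation. The authors deposited whole-number counts per Entrez gene for all 15 libraries (27179 identifiers, 4671 of them 0 in every library; 25275 matched a symbol). Samples were grouped by their labels.

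edgeR 4.0.16 (R 4.3.3, limma 3.58.1) fitted 4 group means to the 15 libraries with TMM scaling after its filter on low counts (minimum 10), by quasi-likelihood, two-sided, with Benjamini-Hochberg adjustment over 16816 genes and a threshold of 0.05. DESeq2 1.42.0 was an alternative. The GC trend was a spline with 5 degrees of freedom fitted to each library. The calculations were tested on simulated data. Named were all called genes, the 10 of smallest p in each direction without overlap at 1 CPM or more, the first 3 of each list described, and genes separated at both stages; other list members, Gja5 and Dsp were chosen after their values were seen, and a few genes that met these rules are not reported here. The members and lists were chosen with earlier results of these data known.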

Additional observations from a re-analysis of the deposited data

Results flagged for a closer look

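Among 74 named genes checked in the 4 pre-extinction ABX libraries, 5 had 1 library whose gap to the next was large for the range of its group, and in each it was the highest, ABX 4. For Gpc3 the gap was small in CPM, since the other 3 libraries were almost equal. Chance gives such a gap in about 1 of 20 groups. The level in ABX 4 was 6.591 CPM for Acta2 with the next library at 3.885 CPM, 7.74 CPM for Myh11 (next 4.682), 5.12 CPM for Eln (next 3.18), 1.371 CPM for Abcc6 (next 0.7471) and 5.16 CPM for Gpc3 (next 4.931).

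The effect of ABX differed between the stages by DESeq2 for 4 genes (0.0238% of those tested). The adjusted p of the interaction was 0.005342 for Myh6, 0.009285 for Pkp2, 0.009285 for Prr16 and 0.02824 for Fmo2. edgeR called none of these interactions (adjusted p = 0.564 each), and 346 genes (2.06%) had an unadjusted p under 0.05 there. Fmo2 was at 1.48, 0.998, 1.11 and 1.41 CPM with ABX and 1.93, 2.17 and 2.14 CPM without before extinction, and at 2.87, 3.60, 2.76 and 3.04 CPM with ABX and 2.53, 2.55, 2.72 and 2.78 CPM without after it. Pkp2, plakophilin of desmosomes, was at 4.80, 5.95, 6.70 and 6.09 CPM with ABX and 5.88, 6.72 and 6.4 CPM without before extinction, where the groups overlapped, and at 8.96, 12.1, 11.6 and 11.1 CPM with ABX and 6.91, 6.73, 6.48 and 6.67 CPM without after it.

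For Prr16, Etv6, Sox1ot and Zfand2a every ABX library lay on 1 side of every non-ABX library before extinction and on the opposite side after it. Prr16 was at 13.9, 11.7, 11.9 and 12.8 CPM with ABX and 11.2, 8.70 and 8.52 CPM without before extinction, and at 10.5, 9.22, 11.2 and 12.1 CPM with ABX and 13.2, 13.6, 14.4 and 13.9 CPM without after it. Etv6, a transcriptional repressor, was at 32.9, 36.7, 36.9 and 35.9 CPM with ABX and 42.8, 40.8 and 43.1 CPM without before extinction, and at 40.4, 41.8, 36 and 35.5 CPM with ABX and 35.1, 32.2, 34.5 and 33.7 CPM without after it. The difference of the log2 fold changes, before minus after extinction, was 0.763 for Prr16, -0.427 for Etv6, 0.3497 for Sox1ot and -0.1286 for Zfand2a. The edgeR interaction had an adjusted p = 0.564 for Prr16 and 1 for the other 3.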

How the results depend on the processing

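The count of genes called before extinction was 1 by edgeR and 15 by DESeq2. It was 2 with no filter on low counts, 8 with the replicate block and the GC trend removed together, and 0 in the 7 libraries alone with the trend removed, where Myh6 had an adjusted p = 0.0889. Leaving out 1 library gave from 1 to 28 calls, 28 without ABX 4 and 2 without non-ABX 3. With the trend removed as well, these 2 gave 33 and 2. In both cases with 2 calls and no trend removed the second gene was Myl3, which has at most 3 reads outside the pre-extinction non-ABX libraries and without non-ABX 3 enters the test only through its high group, so those calls support nothing. The log2 fold change of Myh6 ran from -1.90 to -1.48 over 25 settings and passed in 24. Genes separated lower numbered 528, and 884 with the GC trend removed. After extinction 3 genes were called, 182 by DESeq2, 45 with the trend removed, and from 0 to 6 when 1 post-extinction library was left out (6 without ABX 1, and 0 without each of the others). For the interaction 0 were called by edgeR and 4 by DESeq2. Same-numbered libraries before extinction had correlations of their deviations from -0.75 to 0.60, and differently numbered ones from -0.71 to 0.79. These deviations still held the GC trend, so the check cannot decide whether the numbers pair the libraries. The replicate block alone left 1 call and placed the cardiac and striated list median just below the endothelial one (both -0.37). Of 1822 values of 74 named genes, 1778 stayed on their side of the threshold, 43 newly passed, 1 no longer passed and 0 turned direction. Most of these 74 were picked for a call, a small p or separated libraries, so a turn of direction was unlikely from the outset. Genes picked from most of the lists were not in this check. Adra1d of the monoamine and acetylcholine receptor list, for example, had -0.33, and 0.14 with the GC trend removed. Of 1199 list medians 1072 moved by less than the spread between replicates. Settings that combine the trend with a left-out library, that leave out ABX 1 and non-ABX 3 together, or that use 7 libraries with the trend removed were chosen after seeing the data. Genes under 1 CPM rest on few reads per library, and 8 muscle genes could not be tested at this depth.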
